A study of Rattus norvegicus with 29 samples.

Results

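Chromatin accessibility was compared between the nucleus accumbens (NAc), a part of the ventral striatum, and the dentate gyrus (DG), a part of the hippocampus, in rats that received saline. The comparison used 8 of the 29 ATAC-seq libraries of the series, 4 from each region, chosen by their titles, and asked which open chromatin regions (OCRs) set the 2 regions apart without drug exposure. All animals were adult male Sprague-Dawley rats, given 4 intraperitoneal saline injections of 1 mL/kg at intervals of 2 h. NAc and DG libraries of 1 replicate number carried the same animal number in their peak names, so the 8 libraries came from 4 animals. For comparison, 8 libraries of the same regions came from 4 other rats given methamphetamine (METH) at 10 mg/kg on the same schedule.

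In ATAC-seq a transposase inserts sequencing adapters into DNA that is not wrapped in nucleosomes, so the number of reads over an OCR measures how open it is. Most neurons of the NAc are medium spiny neurons, which use GABA and receive dopamine input, while granule cells, the main neurons of the DG, use glutamate and send mossy fibres to Ammon's horn (CA). OCRs that lie away from promoters, many of them enhancers, are known to differ more between neuron types than promoters do. Each library was made from tissue with several cell types, so a larger share of cells with an open region and a wider opening in each cell cannot be told apart.

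Depth was similar in both regions. NAc libraries held 10.66 to 13.8 M counts in OCRs (1 M is 1000000) and DG libraries 9.195 to 12.71 M, with means of 11.88 ± 1.42 M and 11.24 ± 1.57 M (SD, n = 4 each; two-sided exact permutation test, p = 0.657). The authors' peak lists held 77870 ± 17000 peaks per NAc library and 74920 ± 9710 per DG library (SD, n = 4 each; exact permutation p = 0.83). Of 6 such library measures compared the lowest p was 0.514 before any adjustment, and 4 libraries against 4 cannot give a p under 0.0286. Neither difference was larger than the spread between libraries, and leaving out 1 library could turn either sign. On log2 CPM, where CPM is counts per 1000000 counts of a library, Pearson's r across OCRs was 0.88 to 0.939 within NAc, 0.815 to 0.895 within DG and 0.661 to 0.807 between the regions. OCRs are not independent replicates, so these r values describe the libraries only.

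**Figure D1:**
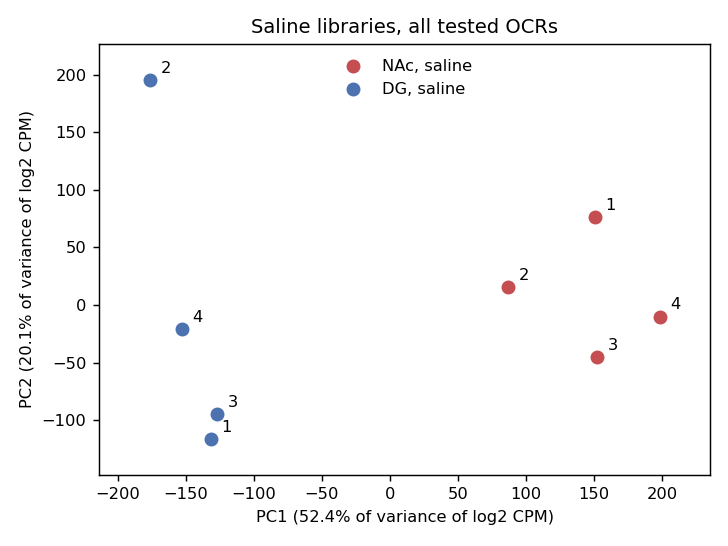
Scores of the 8 saline libraries on the first 2 principal components of log2 CPM, with PC1 on the x axis and PC2 on the y axis, each with its percentage of variance. Numbers are replicates. PC1 (52.4%) placed the NAc libraries between 86.6 and 198.3 and the DG libraries between -176.2 and -127.1, and DG replicate 2 stood apart on PC2.

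The first principal component held 52.4% of the variance and separated the regions without overlap. DG replicate 2 stood apart from the other 3 DG libraries on the second component, which held 20.1%, at 195.4 against -116.2 to -20.61, and it held no count at 498 OCRs against 53 to 95 in the others. Region took 50.5% of the variance of log2 CPM over the 8 libraries. The peak names also carried 1 of 2 spellings of a tag. The first spelling marked replicates 1 and 2 and the second replicates 3 and 4, and both regions were present under each. In the second set NAc and DG libraries had the same sample-sheet positions, 2 and 3, whereas in the first set NAc had 2 and 3 and DG had 6 and 7. The part of these positions in the results was not tested.

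Of 98237 OCRs, 97433 had enough counts to be tested. An OCR was called when its log2 fold change passed 1 in either direction with a false discovery rate (FDR) under 0.01 by the edgeR quasi-likelihood test. By this rule 6842 OCRs (7.02% of those tested) were more accessible in NAc and 3716 (3.81%) were more accessible in DG. The OCRs called NAc higher had a median log2 fold change of 2.36, and 1662 of them passed 8-fold. The OCRs called DG higher had a median of -2.03, and 246 passed 8-fold. All 4 NAc libraries lay above all 4 DG libraries at 6742 (98.5%) of the former, against 10.7% of all tested OCRs, and below them at 3449 (92.8%) of the latter, against 8.63%. Both shares describe OCRs chosen on these libraries. At an FDR under 0.05 without a fold threshold, 10025 OCRs were higher in NAc and 8288 in DG. Just inside the FDR threshold lay an OCR with a log2 fold change of 1.47 and an FDR of 0.009996, and just outside lay one with 1.41 and 0.010007. In the DG direction the corresponding OCRs had -1.57 with 0.009994 and -1.80 with 0.010008.

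Since the same 4 animals gave both regions, the comparison was also fitted with the animal as a block. The paired edgeR fit called 5658 OCRs NAc higher and 1878 DG higher, of which 5485 and 1853 were also called without the block. The DG count thus fell by more than the NAc count. The block also adds terms to the model, and what lowered the counts was not tested. All 6842 and all 3716 OCRs kept their direction in the paired fit, with medians of 2.39 and -2.01. The surplus of NAc higher OCRs was not seen without DG replicate 2, where 7106 OCRs were NAc higher and 7458 DG higher. The counts also moved by over 1.5 times without NAc replicate 4 (3896 and 1475), and the DG count moved so without NAc replicate 1 (2157), NAc replicate 3 (2258) or DG replicate 4 (1796). Within the first tag set (2 libraries against 2) no OCR was called by edgeR at this FDR, although 11804 had an unadjusted p under 0.05. The second set alone gave 6405 and 3497 calls. It does not include DG replicate 2, yet the surplus of NAc higher OCRs was present there. In the first set, 6822 of 6822 tested NAc higher OCRs were higher in NAc (median 2.27) and 3666 of 3666 DG higher OCRs were higher in DG (median -1.82), which is a description, since these libraries had helped to choose them.

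Over the 8 libraries the median CPM was 3.61 for NAc higher and 3.45 for DG higher OCRs, against 4.41 for all tested OCRs. These means include the region where the OCR was lower. Mean CPM of NAc higher OCRs was 6.02 in NAc and 1.12 in DG at the median, and that of DG higher OCRs was 5.53 in DG and 1.32 in NAc. For all tested OCRs the median in the higher region was 5.35. In their higher region the called OCRs were thus about as accessible as a typical tested OCR. In the lowest decile of mean CPM 8.73% of OCRs were NAc higher and 5.52% DG higher, while in the highest decile, with a median of 42.1 CPM, these shares were 0.144% and 0.0821%. The 2 directions differed in width. NAc higher OCRs had a median width of 582 bp and DG higher OCRs 716 bp, against 664 bp over all tested OCRs. Of OCRs under 400 bp, 8.67% were NAc higher and 1.16% DG higher, whereas of those from 800 to 1200 bp the shares were 4.06% and 4.81%. Width was set when the authors merged peaks of all groups, so a width is that of the merged region and not of 1 brain region.

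**Figure D2:**
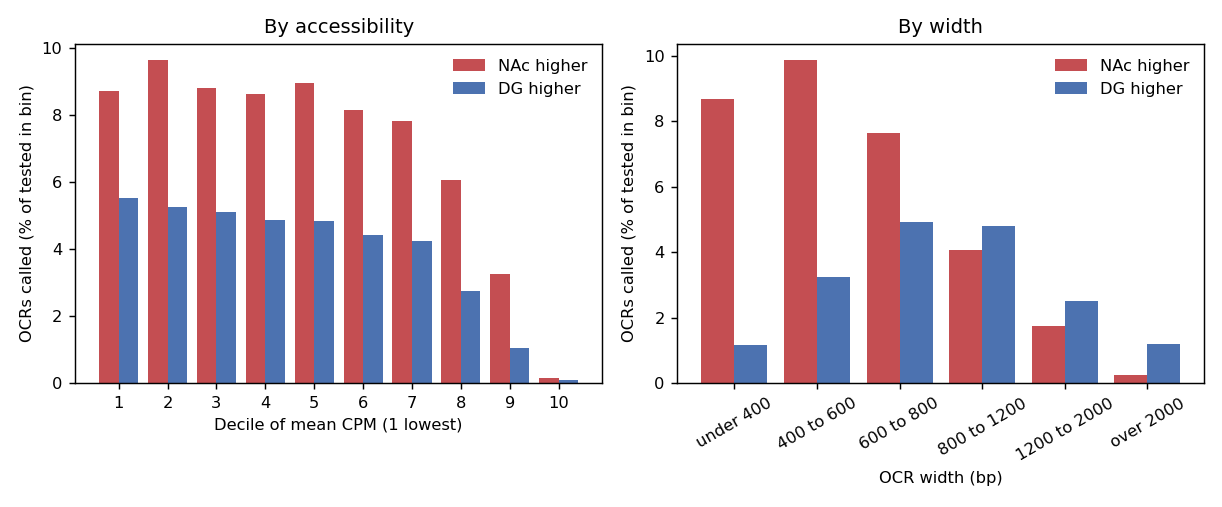
Percentage of tested OCRs called NAc higher or DG higher (y axis) by decile of mean CPM over the 8 libraries (left) and by OCR width in bp (right). Both shares fell to 0.144% and 0.0821% in the highest CPM decile, and NAc higher calls were most frequent (9.86%) from 400 to 600 bp.

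Peak calls in single libraries gave the same contrast from another side. A peak was present in all 4 NAc and in no DG library at 3447 OCRs, of which 2987 (86.7%) were called NAc higher. The converse held at 1255 OCRs, of which 899 (71.6%) were called DG higher. At 29174 OCRs a peak was present in all 8 libraries, and only 0.548% and 0.233% of these were called. Peaks and counts come from the same reads, so the 2 views are not independent. Without DG replicate 2 the number of OCRs with a peak in every DG and no NAc library was 2919, and it was 2053 without NAc replicate 3 and 2192 without DG replicate 3. The NAc number was 5247 without NAc replicate 2. Both numbers can only stay or rise when a library is left out, as fewer libraries have to meet the condition.

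The largest differences were OCRs that were close to closed in the other region. The OCR at chr16:66501931-66502558 had 11.9, 8.72, 11.9 and 20.4 CPM in the 4 NAc libraries and 0.0949, 0, 0.41 and 0.146 CPM in the 4 DG libraries. Its log2 fold change was 6.31 ± 0.52 (SE, n = 4 each; edgeR FDR = 1.34e-05), from 649 counts in NAc and 7 in DG. The highest fitted change, 6.73 ± 0.80, belonged to chr5:91767144-91767533, with 2.33 to 4.62 CPM in NAc. All DG libraries together held 1 count there, which gave a ratio of 159 with an exact counting interval (95%) of 28.1 to 6310. Of the 8 NAc higher OCRs of largest change, 3 lay on chromosome X, 2 on chromosome 16 and 1 each on chromosomes 2, 5 and 6, with log2 fold changes from 5.77 to 6.73. Over the whole of chromosome X 7.94% of tested OCRs were NAc higher.

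In the DG direction the changes were smaller. The OCR at chr7:103680633-103681264 had 0.194, 0, 0.136 and 0.154 CPM in NAc and 3.23, 3.64, 6.05 and 1.61 CPM in DG (log2 fold change -4.74 ± 0.68, SE; FDR = 0.000172). At chr3:45595926-45596766, 473 DG counts stood against 27 NAc counts, with 6.08 to 16.1 CPM in DG and 0.154 to 1.09 CPM in NAc (log2 fold change -4.24 ± 0.48, SE; FDR = 3.61e-05). The other 6 OCRs of largest change in this direction had log2 fold changes from -4.50 to -4.06. Lack of overlap between the regions was a condition for naming the OCRs of largest change in both directions.

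A few called OCRs were widely open in at least 1 region. The most accessible NAc higher OCRs included chr20:14468802-14470249, with 56.2, 39.1, 56.2 and 51.7 CPM in NAc and 15.8, 7.74, 7.38 and 10.5 CPM in DG (log2 fold change 2.29 ± 0.25, SE; FDR = 3.05e-05). The other 3 had log2 fold changes of 1.39 to 1.70. The one at 1.39, chr14:105886573-105887766, missed the FDR threshold without any 1 of 5 libraries (NAc replicate 1, 3 or 4, or DG replicate 3 or 4; FDR from 0.0111 to 0.021). The 4 most accessible DG higher OCRs had log2 fold changes of -1.21 to -1.001, close to the threshold, and chr20:31818282-31819221 fell below it with the animal as a block (-0.98, FDR = 0.00094) and without NAc replicate 1 or 4 or DG replicate 2 or 3. Of the others, chr13:90699792-90701481 fell below a threshold without NAc replicate 1, 3 or 4 or DG replicate 3 or 4 (-0.99 to -0.93), and chr7:99521813-99523717 did so without NAc replicate 1, 3 or 4 or DG replicate 3 (FDR 0.0115 to 0.0189).

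Gene names were available only for OCRs whose human orthologous region holds a variant that genome-wide association studies linked to a neurological trait, as the study tabulated them. Of these 813 were tested, and in 581 the variant was assigned to a named gene. All gene names below therefore come from OCRs selected for such variants, which are no random sample of OCRs or of genes. An OCR is called that of a gene, or placed in it, when the table assigns the variant to that gene. Of the 813 OCRs with such a variant, 44 were NAc higher and 19 DG higher, 7.75% in all against 10.8% of all tested OCRs. By the annotated place of the variant, 0 of 56 OCRs with one in a 5′ UTR were called, with a median absolute log2 fold change of 0.12 and a median of 32.4 CPM. Of 452 intronic OCRs 38 (8.41%) were called, as were 19 of 176 (10.8%) intergenic or regulatory ones and 6 of 129 (4.65%) in other exonic places. The OCRs with a variant in a 5′ UTR also had the highest median CPM of these groups.

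**Figure D3:**
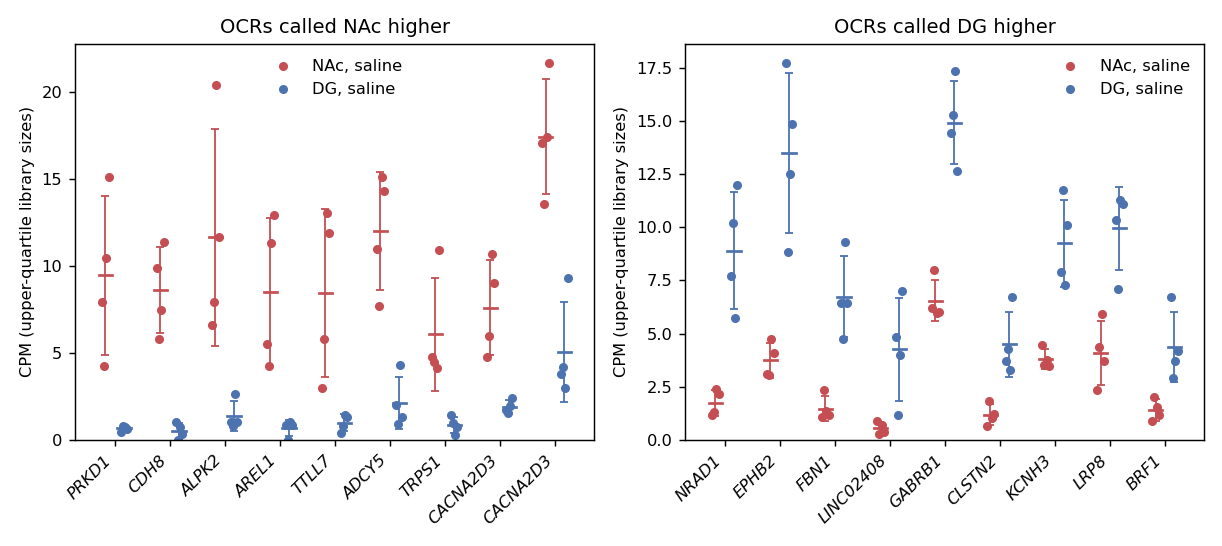
Accessibility (CPM, y axis) of the 9 called OCRs of lowest FDR in each direction among those assigned to a named gene through a trait-linked human variant. Points are single libraries, lines with bars are means ± SD (n = 4). NAc and DG points do not overlap for any OCR shown, and the highest NAc value shown is 21.7 CPM, at CACNA2D3. The OCRs were chosen by FDR on these same libraries, so the lack of overlap is a description. Of all tested OCRs 10.7% had all NAc libraries above all DG libraries and 8.63% had them below.

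In the NAc direction the 15 OCRs of lowest FDR assigned to a gene were examined, and CDH8 and PRKD1 had the highest fold changes among them. The OCR of CDH8, a cadherin that mediates adhesion between neurons, at chr19:6354849-6355507, had 9.89, 5.78, 7.49 and 11.4 CPM in NAc and 1.04, 0, 0.718 and 0.366 CPM in DG (log2 fold change 4.03 ± 0.53, SE; FDR = 9.56e-05). The OCR of PRKD1, a serine/threonine kinase, at chr6:71608008-71608843, had 7.95, 4.26, 10.5 and 15.2 CPM against 0.475, 0.82, 0.718 and 0.658 CPM (log2 fold change 3.81 ± 0.42, SE; FDR = 3.37e-05). At both, the lowest NAc library stood above the highest DG library by several fold. Those of AREL1, an E3 ubiquitin ligase (3.61), ALPK2, an alpha kinase (3.09), TTLL7, which adds glutamates to tubulin (3.08), and TRPS1, a zinc-finger repressor (2.80), also had log2 fold changes beyond 2 in favour of NAc. UNC5C, a receptor of the guidance cue netrin, had one at 1.53.

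ADCY5 encodes the adenylyl cyclase that makes most cAMP in striatal neurons. Its OCR at chr11:68778236-68778767 had 10.96, 7.71, 15.1 and 14.3 CPM in NAc and 1.99, 0.91, 4.31 and 1.32 CPM in DG (log2 fold change 2.52 ± 0.41, SE; FDR = 0.00044). A second OCR in the same gene, at chr11:68832353-68833557, had 31.5 to 41.3 CPM in NAc and 15.9 to 62.1 CPM in DG, so the groups overlapped and its log2 fold change was -0.05 ± 0.29 (SE, FDR = 0.956). CACNA1E, the pore-forming subunit of R-type calcium channels, had an OCR with 7.66, 7.91, 12.8 and 15.8 CPM against 2.09, 0.455, 3.79 and 2.63 CPM (log2 fold change 2.30 ± 0.44, SE; FDR = 0.00144). CACNA2D3, an auxiliary calcium channel subunit, had 2 NAc higher OCRs, at log2 fold changes of 1.77 and 1.99.

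In the DG direction 11 of the 581 OCRs assigned to a gene were called, against 27 in the NAc direction. Together these were 6.54% of the 581, under the 10.8% of all tested OCRs. The long non-coding RNA gene NRAD1 had an OCR with 1.16, 1.32, 2.38 and 2.15 CPM in NAc and 7.69, 10.2, 5.74 and 12.0 CPM in DG (log2 fold change -2.32 ± 0.34, SE; FDR = 0.000234). EPHB2, an ephrin receptor with roles at excitatory synapses, had 3.10, 3.04, 4.77 and 4.08 CPM against 17.8, 8.83, 12.5 and 14.8 CPM (log2 fold change -1.84 ± 0.28, SE; FDR = 0.000325). At FBN1, which encodes the matrix protein fibrillin, the change was -2.19. CLSTN2, a synaptic adhesion protein, had -1.92 but missed the FDR threshold without NAc replicate 3 or 4 or DG replicate 4 (FDR 0.0117 to 0.0209). The OCRs of KCNH3, a potassium channel (-1.28), LRP8, a receptor of reelin (-1.28), BRF1, a factor of RNA polymerase III (-1.63), and PKN2-AS1, an antisense RNA (-1.62), were DG higher without the block but missed the FDR threshold with it (FDR 0.0126, 0.0142, 0.031 and 0.012). All 4 also missed it without NAc replicate 4 or DG replicate 4. NAc replicate 1 decided the call for 3 of them as well (LRP8, BRF1, PKN2-AS1), NAc replicate 2 for KCNH3, LRP8 and PKN2-AS1, NAc replicate 3 for KCNH3 and BRF1, DG replicate 1 for LRP8 and BRF1, and DG replicate 3 for LRP8, BRF1 and PKN2-AS1, with FDRs of 0.0109 to 0.0374 over all these fits. TTC21B, a gene of ciliary transport, had -2.92, but its regions overlapped and the call was lost without any 1 of the libraries but NAc replicate 3 and DG replicate 2 (FDR 0.0178 to 0.0398).

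GABRB1, a subunit of the GABA-A receptor, was 1 of 5 loci singled out here from a larger number of published examples. It held 2 OCRs that differed in opposite directions. The OCR at chr14:38804098-38805271 had 6.21, 8.01, 5.99 and 6 CPM in NAc and 14.4, 15.3, 17.3 and 12.7 CPM in DG (log2 fold change -1.19 ± 0.23, SE; FDR = 0.00169). The FDR was 0.0112 without NAc replicate 4. The OCR at chr14:38814789-38815751 had 22.3, 20.0, 24.4 and 22.9 CPM in NAc and 18.8, 7.38, 11.7 and 8.27 CPM in DG. Its log2 fold change of 0.96 ± 0.27 (SE; FDR = 0.0181) missed both thresholds, and the paired fit called it (1.05, FDR = 0.00912), as did the fit without DG replicate 1 (1.31, FDR = 0.0011). Regions did not overlap at either OCR. The single OCR examined at each of the other 4 loci was not called. It had log2 fold changes of -1.52 (FDR = 0.012) at ST18, -0.82 at SDK2, -0.48 at TIAM2 and -0.15 at NETO1. Of the tested OCRs within 100 kb, 3 of 21 (14.3%) at TIAM2 were NAc higher and 1 of 22 (4.55%) at SDK2 DG higher. Of all tested OCRs these shares were 7.02% and 3.81%. The ST18 OCR passed without DG replicate 2, its only DG library within the NAc range (-1.81, FDR = 0.000167).

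Marker genes of the main neuron types were then examined. Among 29 genes of medium spiny neurons, 6 had an OCR with such a variant assigned to them, 10 OCRs in all. The other genes of the list were not looked up among the remaining OCRs, for want of a rat annotation of this build. Only that of ADCY5 was called, and the median log2 fold change of the 10 was 0.29, against -0.07 over all tested OCRs. GAD1, which makes GABA, had an OCR with 9.23 to 11.4 CPM in NAc and 2.19 to 9.03 CPM in DG (log2 fold change 0.92 ± 0.34, SE; FDR = 0.0711). BCL11B, a transcription factor of medium spiny neurons, had 0.75 (FDR = 0.22). Among 25 genes of hippocampal granule and pyramidal neurons, 9 had 11 such OCRs, none of them called, with a median of -0.34. BDNF, the growth factor stored in mossy fibres, had 1.36, 2.13, 1.70 and 1.23 CPM in NAc and 5.51, 1.73, 5.54 and 6.73 CPM in DG (log2 fold change -1.60 ± 0.41, SE; FDR = 0.0107). DG replicate 2 alone fell into the NAc range there, and without it BDNF passed (-1.88, FDR = 0.000424). NFIX, a transcription factor, had 29.0 to 41.0 CPM in NAc and 46.8 to 67.5 CPM in DG, without overlap but under the fold threshold (-0.65, FDR = 0.0234).

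All tested OCRs within 100 kb of these marker OCRs, the marker OCRs included, were then counted. Around the 6 genes of medium spiny neurons lay 146 tested OCRs, of which 29 (19.9%) were NAc higher and 1 (0.685%) DG higher, against 7.02% and 3.81% of all tested OCRs. Around the 9 hippocampal genes lay 189, of which 1 (0.529%) was NAc higher and 10 (5.29%) DG higher. Around 12 genes of synapses and channels lay 197, with 13 (6.6%) NAc higher and 7 (3.55%) DG higher, near the background. The genes were limited to those with a named OCR, and OCRs of 1 neighbourhood lie close together, so these shares are descriptions.

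**Figure D4:**
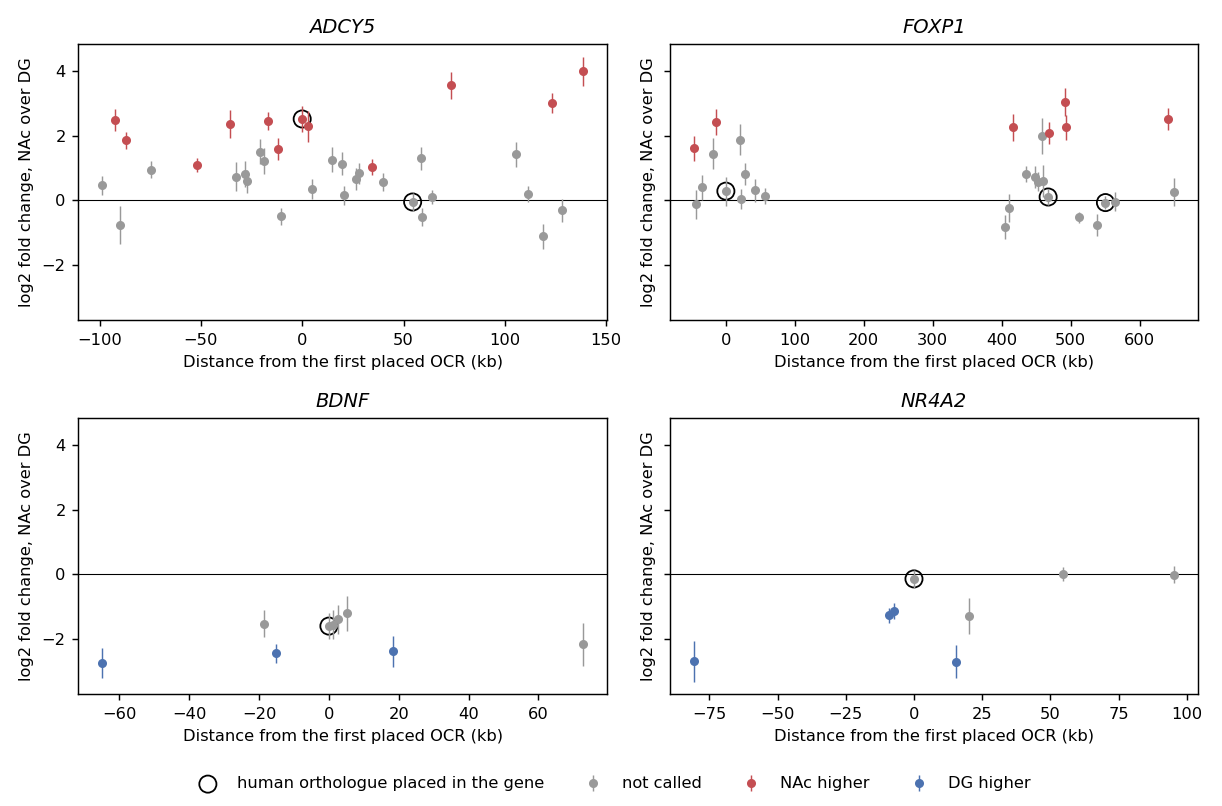
Log2 fold change NAc over DG (y axis, bars are SE) of the tested OCRs within 100 kb of the OCRs placed in ADCY5, FOXP1, BDNF and NR4A2, by distance in kb from the first placed OCR (x axis). Circles mark the placed OCRs and colours the calls. Around ADCY5 12 of 36 and around FOXP1 7 of 29 OCRs were NAc higher, and around BDNF 3 of 9 and around NR4A2 4 of 8 were DG higher. Of all tested OCRs 7.02% were NAc higher and 3.81% DG higher.

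ADCY5 had the most called neighbours of the marker genes. Of 36 tested OCRs, 12 were NAc higher and none DG higher, with log2 fold changes up to 3.998 at chr11:68916629-68917103 (FDR = 3.8e-05). FOXP1, a transcription factor of striatal neurons, had 7 NAc higher OCRs among 29, at 1.61 to 3.04, while the 3 OCRs placed in the gene itself lay between -0.07 and 0.28 with overlapping groups. ARPP21, a phosphoprotein of striatal neurons, had 4 NAc higher OCRs and 1 DG higher among 24. BCL11B had 3 among 15 and GAD1 2 among 14, all NAc higher. EGR3, an immediate early gene, had 1 among 28 (3.57%), under the 7.02% of all tested OCRs. NETO1, an auxiliary subunit of kainate receptors, had 5 NAc higher and 1 DG higher among 13.

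On the DG side, all 9 tested OCRs around BDNF had lower values in NAc, from -2.75 to -1.21, and 3 of them were called. NR4A2, a gene switched on by neuronal activity, had 4 DG higher OCRs among 8, from -2.71 to -1.14, although the OCR placed in the gene had 12.6 to 30.7 CPM in NAc and 17.3 to 33.2 CPM in DG. TBR1, a transcription factor of glutamatergic neurons, had 2 DG higher OCRs among 7 (28.6%), and NFIX 3 among 46 (6.52%). EMX2OS and MEF2C had 1 DG higher OCR each, among 11 (9.09%) and 26 (3.85%). Of all tested OCRs 3.81% were DG higher, so the share around MEF2C was that of the background. CAMK1G had 1 NAc higher OCR and none DG higher among 20, and no OCR was called among 23 at ZBTB20, 39 at GRIN2B and 8 at MEIS1.

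Markers of other cell types had few named OCRs. The OCRs of APOE and CLU (astrocytes) had log2 fold changes of 0.33 and -0.25, that of INPP5D (microglia) -0.04, that of ERBB4 (interneurons) 0.07 and the 1 of the oligodendrocyte list, in ST18, 0.15. The other ST18 OCR, given above as a study locus, had -1.52 (FDR = 0.012) and was called DG higher without DG replicate 2. NAc and DG values overlapped at all 6, and none was called with all 8 libraries. None was available for genes of endothelial cells, ependymal cells or neuroblasts. Around INPP5D 4 of 33 OCRs (12.1%) were NAc higher, around ERBB4 2 of 9 (22.2%) and around ST18 1 of 6 (16.7%). Of all tested OCRs 7.02% were NAc higher, so shares above this were not particular to genes of medium spiny neurons. Around APOE and CLU none of 24 OCRs was NAc higher. The housekeeping gene ACTB had 115 to 163 CPM in NAc and 112 to 169 CPM in DG (log2 fold change 0.02 ± 0.19, SE) and no called OCR among 34 nearby. The part of cell composition in the called OCRs was not tested.

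Called OCRs lay near others of the same direction. Another NAc higher OCR lay within 50 kb of 40.2% of the NAc higher OCRs, of 21.7% of the DG higher OCRs and of 29.2% of those not called. Another DG higher OCR lay within 50 kb of 30.3% of the DG higher OCRs, 12.9% of the NAc higher OCRs and 16.4% of those not called. Of 5178 windows of 500 kb with a tested OCR, 250 held at least 5 NAc higher and 59 at least 5 DG higher OCRs. The median window held 15 tested OCRs, and how many windows would reach 5 under an even spread was not tested. The window chr6:8500001-9000000 held 15 NAc higher OCRs among 21, with a median log2 fold change of 2.38. The window chr11:68500001-69000000, which holds ADCY5, had 14 among 48. In the DG direction chr18:64500001-65000000 held 9 among 32 and chr11:35000001-35500000 held 8 among 31. Of all tested OCRs 7.02% were NAc higher and 3.81% DG higher. The named windows were picked for their high numbers of called OCRs, so larger shares there were fixed by the choice.

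Libraries of METH-treated rats, from 4 other animals, were used to see whether the regional differences appeared outside the samples that defined them. In a separate edgeR fit of the 8 METH libraries no OCR passed the log2 fold change of 1 and FDR of 0.01, with 24980 at an unadjusted p under 0.05. The lowest FDR was 0.0132, and 5052 OCRs (5.35%) were higher in NAc and 945 (1%) in DG at an FDR under 0.05. With the animal as a block none passed an FDR of 0.05, and none did so without NAc METH replicate 1 or 4 or DG METH replicate 2 (lowest FDR 0.0555, 0.0685 and 0.0583). These 2 counts were 1134 and 43 without NAc METH replicate 2, 2790 and 883 without DG METH replicate 1, and 2697 and 627 without DG METH replicate 4. Without DG METH replicate 3 the fit called 8228 and 5334 OCRs, and without NAc METH replicate 3 it called 4482 and 100, so the number of OCRs passing either threshold rested on single libraries.

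Directions were nearly all the same. In an edgeR fit of the METH libraries with no filter on low counts, added after the data were seen, 6841 of the 6842 NAc higher OCRs were again higher in NAc, against 46.8% of all OCRs. Their median log2 fold change was 2.36, 6664 passed 1, and 4218 had an FDR under 0.05. Of the 3716 DG higher OCRs 3673 (98.8%) were again higher in DG, against 53.2% of all OCRs. Their median was smaller, at -1.48, with 2823 below -1 and 522 at an FDR under 0.05. In the filtered fit of all 8 METH libraries, the OCRs of CDH8 (3.66), PRKD1 (3.68), ADCY5 (2.78) and CACNA1E (2.84) had log2 fold changes with FDRs of 0.0164, 0.029, 0.022 and 0.0178, which pass 0.05 but not in the fits without 1 library in which no OCR did. None of these 4 passed 0.05 with the animal as a block. With the filter, which kept 5979 and 3056 of the called OCRs, the shares of all tested OCRs higher in NAc and in DG were 47.8% and 52.2%. Of the kept NAc higher OCRs 97.1% passed 1 and 58.3% had an FDR under 0.05, against 14.4% and 5.34% of all OCRs tested in both fits. Of the kept DG higher OCRs 71.7% lay below -1 and 13.6% had an FDR under 0.05 in that direction, against 10.4% and 0.978%. An OCR nearly closed in 1 region passes the filter only through its counts in the other. The filter thus favours OCRs that kept their difference, and the shares among kept OCRs are descriptions. Some of the 15 NAc higher OCRs examined in genes missed an FDR of 0.05 in the filtered fit. They were those of UNC5C (0.78, FDR = 0.261), PMEPA1 (1.77, 0.101), COX7A2L (1.75, 0.0943) and CACNA2D3 (2.23, 0.0622, and 2.06, 0.085). All DG higher OCRs of named genes that the filter kept missed it, with FDRs from 0.05675 at FBN1 (-2.09) to 0.956 at LRP8 (-0.08). KCNH3 (-0.23) had an FDR of 0.806.

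**Figure D5:**
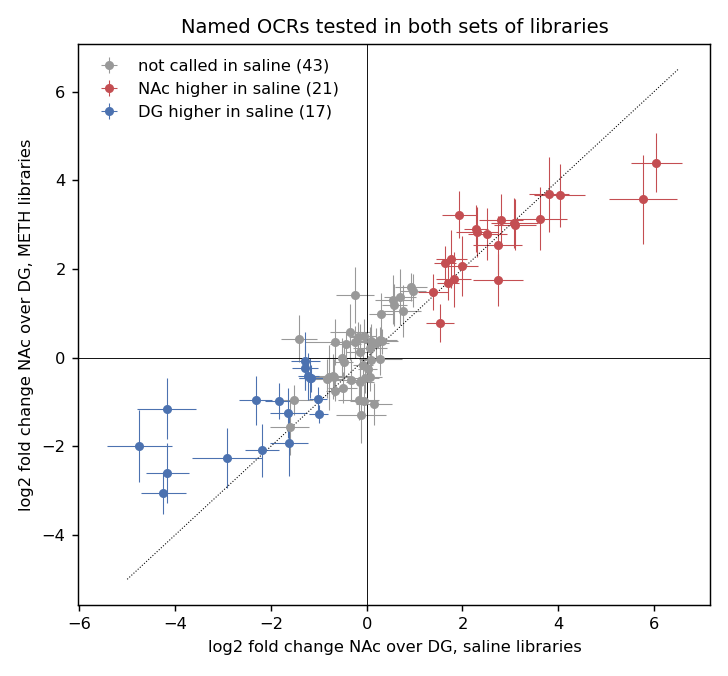
Log2 fold change NAc over DG of the 81 named OCRs tested in both sets of animals, in saline (x axis) and METH libraries (y axis). Bars are SE, colours the call in saline and the dotted line equality. The filter on low counts in the METH fit kept 21 of the 27 named NAc higher OCRs and 17 of the 23 named DG higher OCRs. All 21 lay above 0 and all 17 below 0 in the METH libraries, against 47.8% and 52.2% of all tested OCRs. The filter favours OCRs that kept their difference, so the shared direction of the kept OCRs is a description and no test.

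The difference between the regions was tested against treatment directly. In 1 edgeR model of the 16 libraries, no OCR had a regional difference that differed between METH and saline at the thresholds used (lowest FDR 0.954, with 3017 of 98210 OCRs at an unadjusted p under 0.05). The latter count rested on single libraries. It was 15960 without DG METH replicate 3 (lowest FDR 0.246), 7783 without DG saline replicate 2 (0.629), 1744 without NAc saline replicate 1, 1655 without DG METH replicate 1 and 1501 without DG METH replicate 4, while no OCR passed the thresholds in any of these fits. The design had 4 libraries per group, so smaller differences were not detectable, and the result does not show that the regional differences were equal. At the GABRB1 OCR called DG higher in saline, DG METH libraries ran from 3.82 to 16.2 CPM and NAc METH libraries from 5.47 to 8.02 CPM.

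The other 2 regions of the study gave a further view, with other libraries but in part the same animals. The subventricular zone (SVZ), which lies beside the striatum, and CA, which lies beside the DG, were compared in saline with 3 and 4 libraries. At an FDR of 0.01 with a log2 fold change past 1 no OCR was called by edgeR, and 16808 had an unadjusted p under 0.05. With the filter 46.1% of tested OCRs were higher in SVZ and 53.9% in CA. With no filter on low counts, 6833 of the 6842 NAc higher OCRs were higher in SVZ than in CA, against 46.5% of all OCRs, with a median log2 fold change of 2. Of the 3716 DG higher OCRs 3692 (99.4%) were higher in CA, against 53.5% of all OCRs, with a median of -1.62. At CDH8, for example, SVZ libraries had 3.23 to 9.33 CPM and CA libraries 0.143 to 0.547 CPM. At ADCY5 these ranges were 6.09 to 16.1 and 1.41 to 2.01 CPM, and at the OCR of EPHB2, where the regions overlapped, 3.03 to 11.6 and 6.03 to 17.8 CPM.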

How the data were processed

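ATAC-seq was done on frozen tissue by the omni-ATAC protocol. The authors called peaks per library with AIAP (rn6 build, default parameters), merged them into consensus OCRs with mergeBed and deposited raw counts per OCR. The counter, tool versions and transposase offset are not stated in the sources used. The deposited peak lists give fold enrichment as a ratio and −log10 p and q values. Groups came from titles, and animals from peak names. Animal numbers in those names paired NAc with DG libraries of equal replicate number. Deviations of same-numbered libraries from the group means correlated at -0.203, 0.172, 0.078 and 0.102.

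Counts were analysed with edgeR 4.0.16 in R 4.3.3 (upper-quartile library sizes, filterByExpr, robust quasi-likelihood F test, Benjamini-Hochberg FDR over all tested OCRs). SE is the absolute log2 fold change over the square root of F. CPM used the upper-quartile sizes, and log2 CPM a prior count of 2. Peaks were overlapped by at least 1 bp with bedtools 2.31.1. Single values were compared by exact permutation (smallest p 0.0286). Scripts were tested on simulated data. Intervals cover counting error only.

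Named were, per direction, the 8 called OCRs of largest change (mean of at least 1 CPM, no overlap), the 4 most accessible, up to 15 in genes, marker-list OCRs, 5 study loci and the 2 densest 500 kb windows. Gene names came from the study's table of OCRs whose human orthologous regions hold variants linked to neurological traits, through the gene assigned to each variant. The 5 loci were chosen from those the study shows, and ST18 and SDK2 there are named by the study. A result of 1 listed gene is not reported here. The members and lists were chosen with earlier results of these data known. Sequences were not used here, as no rn6 genome was used. Replicates are separate animals by their peak names.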

Additional observations from a re-analysis of the deposited data

Results flagged for a closer look

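Among 192 groups of 4 values checked, 11 held a value set apart from the other 3 by Dixon's criterion, and chance gives about 1 in 20. In NAc, replicate 4 had 10.9 CPM at the TRPS1 OCR against 4.16 to 4.75, replicate 2 had 8.01 CPM at the DG higher GABRB1 OCR against 5.99 to 6.21, and replicate 3 had 10.8 CPM at the FOXP1 OCR chr4:131875113-131876207 against 15.2 to 16. NAc replicate 3 also held 0.409 CPM at chr5:63530221-63530819, where the other 3 held 0. In DG, replicate 3 had 2.67 CPM at the ALPK2 OCR against 0.82 to 1.04, replicate 2 had 0 CPM at the AREL1 OCR against 0.854 to 1.03, and replicate 2 had 81.2 CPM at the FOXP1 OCR chr4:131957391-131960175 against 50.03 to 53.6. DG replicate 3 was the only DG library with counts at 3 of the largest NAc higher OCRs, with 0.103 CPM at chr5:91767144-91767533, 0.205 CPM at chrX:31670832-31671488 and 0.41 CPM at chrX:82800916-82801551. DG replicate 4 had 0 CPM at chr16:58264666-58265332 against 0.182 to 0.205. None of these values was left out.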

How the results depend on the processing

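The DG higher count was 1878 with the animal as a block, 5728 by the DESeq2 Wald test, 1461 with all 15 saline libraries in the fit, and 5810 and 6462 with 1 and 2 RUVr factors. Fits without 1 library gave 3896 to 7106 NAc higher and 1475 to 7458 DG higher OCRs. At a fold change above 1.5 with an FDR under 0.001 the counts were 3200 and 844, and the first tag set alone gave 0 and 0. The replicate block changed no other count of calls by over 1.5 times. Of the 50 called OCRs named, 45 kept the call with it, 36 kept it without each single library and none turned direction. In METH libraries, fits without 1 library gave 0 to 8228 NAc higher and 0 to 5334 DG higher OCRs. OCRs with a peak in every library of 1 region alone numbered 3493 to 5247 (NAc) and 1314 to 2919 (DG) without 1 library, against 3447 and 1255 with all. Leaving out a library can only keep or raise these numbers, so the direction of this change was fixed in advance. The regional difference in counts ran from -0.04667 to 1.125 M (-0.00375 without NAc replicate 3) and that in peaks from -4260 to 8398 (-459.7 without DG replicate 3).

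Of the 43 uncalled OCRs named, 17 turned sign under some alternative. By setting, the second ADCY5 OCR had 0.0625 with the block, 0.0524 and 0.0855 with 1 and 2 RUVr factors and 0.0809 in the first tag set. MEIS1 had 0.0114, 0.0005 and 0.11 in the last 3 of these fits, and GRIK1 0.0028 with 2 factors and 0.0835 in the first set. That set also gave -0.0899 for MEF2C and 0.20 for CACNA1A, and the second gave 0.22 for CAMK1G, -0.23 for ST18, 0.12 for CLU, -0.0296 for ERBB4 and 0.25 for NETO1. Without 1 library the ranges were -0.0776 to 0.15 (ACTB), -0.30 to 0.30 (second ADCY5), -0.17 to 0.22 (ARPP21), -0.19 to 0.0766 (CACNA1A), -0.48 to 0.041 (CLU), -0.0878 to 0.39 (ERBB4), -0.0287 to 0.54, -0.0024 to 0.31 and -0.20 to 0.12 (FOXP1), -0.54 to 0.31 (GRIK1), -0.22 to 0.0894 (INPP5D), -0.0805 to 0.21 (MEF2C), -0.41 to 0.42 (MEIS1), -0.33 to 0.0161 (NETO1), -0.33 to 0.0663 (NR4A2) and -0.0284 to 0.35 (ST18). The cause of these changes was not tested. With 4 libraries per region and most OCRs under 10 CPM, differences below the fold threshold were often within the spread.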
